A study of Mus musculus with 13 samples.

Results

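The collagen chain genes were described in mammary gland fibroblasts of female mice, across 5 stages of gland development, a hormone treatment and a tumour model. Every gene whose symbol has the form Col, a number, a and a number was taken, which gave 44 of the 32285 genes counted. By the kind of collagen they encode, 11 were fibrillar, 9 FACIT (collagens that decorate fibrils and have interrupted triple helices), 6 basement membrane and 18 others. Membership was set by gene name and not by a measured value. Gene positions below are those of GENCODE M21 (GRCm38), which held every member.

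The data were droplet single-cell RNA libraries made with a 3′ chemistry, in which a UMI (unique molecular identifier) stands for 1 captured transcript whatever its length. The stage groups held 1 library each from C57BL/6 wild-type females: puberty (4 weeks), adult virgin (9 weeks), pregnancy (day 14.5), lactation (day 10) and involution (day 4). The placebo and MPA+E groups held 2 libraries each from C57BL/6 wild-type females of 9 weeks, where MPA+E stands for pellets of medroxyprogesterone acetate, a synthetic progestin, with estradiol. Cells of these 9 libraries were sorted as stromal cells negative for lineage markers and for CD24, and the study's methods state 2 females for each stage and for each hormone replicate. The hyperplasia and tumour groups held 2 libraries each from raGFP-Wnt1 females, which carry 1 Pdgfra-GFP knock-in allele and an MMTV-Wnt1 transgene on a mixed C57BL/6 and FVB background. In these animals the MMTV promoter drives Wnt1 mainly in mammary epithelium, and sorted GFP-positive cells were sequenced, so the sort itself selected cells with an active Pdgfra reporter. Mouse 1 was 45 weeks old and mouse 2 was 17 weeks old, and each gave 1 hyperplastic gland and 1 tumour. All comparisons of tumour model and wild-type fibroblasts therefore also differ in strain, age, reporter and sort.

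Fibroblast barcodes had 500 to 7500 genes, at most 10% mitochondrial UMIs, no UMI of Epcam, Pecam1, Rgs5, Sox10, Ptprc or Myog, and at least 5 Dcn UMIs per 10000. The 13 libraries kept 4221 to 12061 barcodes with 48496756 to 103565600 UMIs, and the median UMIs per kept barcode ran from 3973 in pregnancy to 20133 in tumour 2. Levels are in CPM, a gene's share of all UMIs in the kept barcodes of a library, scaled so that 10000 CPM is 1% of the UMIs, so a lower share of expressing cells and less RNA per cell cannot be told apart. Pairs of libraries shared 3 to 35 barcode sequences, at most 0.500% of the smaller library. The 4 fibroblast markers summed to 1935 CPM (tumour 2) to 5479 CPM (lactation), and Sox10, Epcam and the other lineage genes are absent by the limits above. The 5 epithelial markers summed to 95.7 CPM in pregnancy and to at most 4.27 CPM in every other library, led by Krt14 at 68.0 CPM in pregnancy. The endothelial list was led by Kdr, at 43.1 and 45.0 CPM under MPA+E and 14.2 and 14.1 CPM under placebo, while Cdh5 stayed at or under 1.23 CPM everywhere. The pericyte list ran from 11.7 CPM (lactation) to 99.0 CPM (pregnancy), with Myh11 at 83.9 CPM in pregnancy. The immune list reached 15.6 and 7.65 CPM in the tumours and the chondrocyte-like list 16.5 and 17.0 CPM there, against at most 5.07 and 1.22 CPM in the other libraries. The muscle list lay between 2.55 and 11.2 CPM and the adipocyte list between 0.0772 and 3.99 CPM. The part of these markers in the results was not tested.

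Collagens are proteins of 3 chains wound into a triple helix, and fibroblasts are their main source in connective tissue. Fibrillar collagens of types I, III and V form the tensile fibrils of the gland's stroma, FACIT collagens bind to the fibril surface, and type IV collagen forms the sheet of the basement membrane under the epithelium. Other families build microfilaments (type VI), hexagonal networks (type VIII), anchoring fibrils (type VII), proteoglycan-like linkers of the basement membrane zone (types XV and XVIII) or stay in the cell membrane (types XIII, XXIII and XXV). Type I collagen pairs Col1a1 with Col1a2 products, and type IV collagen pairs Col4a1 with Col4a2 products in most tissues.

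Several of the chains are neighbours in the genome. The 44 genes lay on 15 chromosomes, and 9 pairs lay within 200000 bases of each other. Col4a1 (chromosome 8, 11198423 to 11312826, minus strand) and Col4a2 (chromosome 8, 11312805 to 11449287, plus strand) are head to head, and their annotated ends overlap by 22 bases. Col4a4 and Col4a3 on chromosome 1 are head to head with 71 bases between them, and Col4a6 and Col4a5 on chromosome X with 1308 bases. Col3a1 (chromosome 1, 45311538 to 45349706) and Col5a2 (chromosome 1, 45374321 to 45503282) are tail to tail 24614 bases apart.

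Promoter windows from RefSeq on GRCm38.p6 were matched for 35 of the 44 chains, in 38 windows. There was no entry for Col1a1, Col2a1, Col4a3, Col5a2, Col9a3, Col12a1, Col14a1, Col22a1 and Col26a1. The 120 bases before the annotated start are shown for Col1a2 and Col3a1, the most abundant fibrillar chains with an entry, for Col15a1, the most depleted chain in Pi16 and Dpp4 cells among those with at least 50 CPM in a wild-type library, and for Col11a1 and Col8a1, the chains with the largest rise in tumours. Capitals mark, on either strand, the TATA box (TATAAA), the CCAAT box (CCAAT), the GC box bound by Sp1-type factors (GGGCGG) and the AP-1 motif (TGANTCA).
Col1a2 (chr6:4505498-4505617, plus strand): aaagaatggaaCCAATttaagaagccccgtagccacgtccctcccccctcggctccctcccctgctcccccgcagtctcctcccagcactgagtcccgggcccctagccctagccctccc
Col3a1 (chr1:45311418-45311537, plus strand): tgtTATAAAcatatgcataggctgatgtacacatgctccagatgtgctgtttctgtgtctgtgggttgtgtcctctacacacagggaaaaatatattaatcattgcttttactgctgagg
Col15a1 (chr4:47207892-47208011, plus strand): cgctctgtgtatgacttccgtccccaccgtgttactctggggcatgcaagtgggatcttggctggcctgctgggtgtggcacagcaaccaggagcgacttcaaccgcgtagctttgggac
Col11a1 (chr3:114030420-114030539, plus strand): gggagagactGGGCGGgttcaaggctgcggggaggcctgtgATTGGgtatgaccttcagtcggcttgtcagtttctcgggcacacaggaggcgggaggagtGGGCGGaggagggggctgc
Col8a1 (chr16:57754738-57754857, minus strand): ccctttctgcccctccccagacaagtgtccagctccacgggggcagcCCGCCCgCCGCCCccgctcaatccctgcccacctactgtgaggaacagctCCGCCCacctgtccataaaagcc
The Col3a1 stretch held 1 TATAAA and was 40% G and C, and the Col1a2 stretch held 1 CCAAT and was 65.8% G and C. The Col11a1 stretch held 2 GGGCGG and 1 CCAAT, the Col8a1 stretch held 3 GGGCGG, and the Col15a1 stretch held 0 of these motifs. In the 250 bases before the start, GGGCGG stood in 57.9% of the members' windows and in 32.7% of all 32851 windows. CCAAT stood in 34.2% against 33.8%, TATAAA in 13.2% against 12.4% and TGANTCA in 2.63% against 6.75%. A match is a description of the letters only.

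Collagen chains together took 1.85% (hyperplasia 2) to 6.35% (puberty) of all fibroblast UMIs. The shares were 6.35%, 2.73%, 5.04%, 5.09% and 4.46% in puberty, adult, pregnancy, lactation and involution, 3.68% and 3.08% under placebo, 4.80% and 3.60% under MPA+E, 2.33% and 1.85% in hyperplasia and 4.79% and 5.53% in tumours. The hyperplasia libraries were the lowest pair and lay below all other libraries, and the MPA+E and placebo libraries overlapped. Fibrillar chains made up 74.2% to 90.5% of the collagen UMIs, and Col3a1, Col1a2 and Col1a1 alone made up 66.1% to 86.4%. Basement membrane chains ran from 783 CPM in tumour 1 to 3297 CPM in lactation, and FACIT chains from 417 CPM in MPA+E 2 to 2480 CPM in tumour 1.

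**Figure D1:**
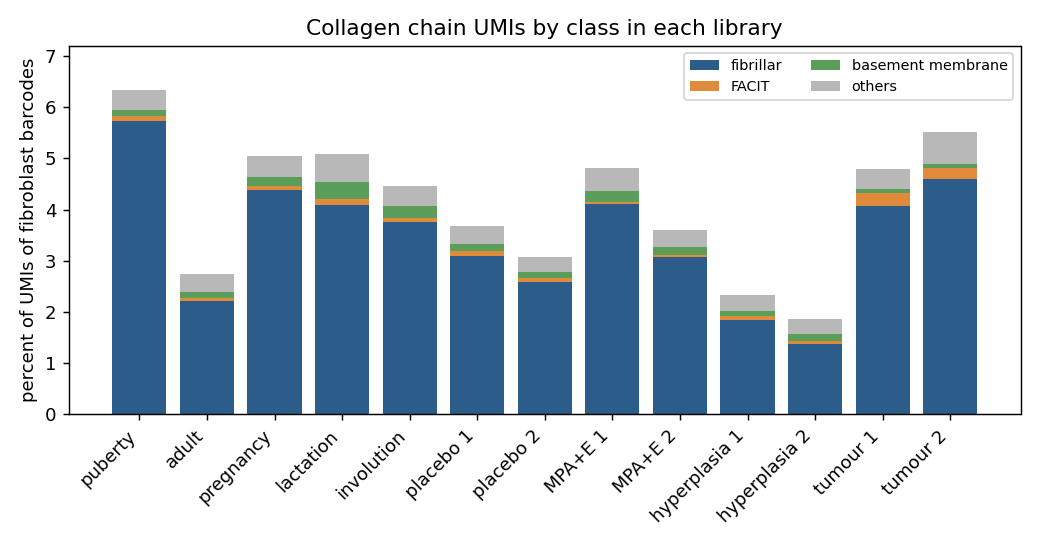
Stacked bars of the percent of fibroblast UMIs taken by fibrillar, FACIT, basement membrane and other collagen chains in each of the 13 libraries, with the axis from 0. Fibrillar chains fill most of every bar, and the 2 hyperplasia bars are the shortest, at 2.33% and 1.85%.

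Of the 44 chains, 11 reached 1000 CPM in at least 1 library, 9 peaked between 50 and 1000 CPM, 9 between 10 and 50 CPM, 9 between 1 and 10 CPM and 6 stayed under 1 CPM. None was at 0 in every library, and 5 were at 0 in at least 1. The abundant chains named below are the 20 that reached 50 CPM in at least 1 of the 13 libraries. Col8a1, Col8a2 and Col11a1 reached it in the tumours only and are scarcer in the other libraries. Col3a1, the only chain of type III collagen, was the most abundant chain in every library, from 5468 CPM in hyperplasia 2 to 24247 CPM in puberty. In fibroblasts at least 98.9% of barcodes held a Col3a1 UMI in each library. Pericyte and endothelial barcodes held a UMI of Rgs5 or Pecam1, none of the other lineage genes and under 5 Dcn UMIs per 10000. The Dcn limit left out barcodes with more RNA of this fibroblast gene, so they give no independent contrast of cell types. Per library, Col1a1 had 61.5 to 655 CPM in the pericyte barcodes of the 9 wild-type libraries. It had 3584 and 5395 CPM in the 2 and 11 pericyte barcodes of tumours 1 and 2, and 861 and 435 CPM in the 27 and 6 endothelial barcodes of hyperplasia 1 and 2, with 4638 and 10350.1 CPM in the 2 and 1 of tumours 1 and 2.

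Chain ratios, within a collagen type or between types of the same class, differed in how narrowly they held. Col1a2 over Col1a1 UMIs ran from 0.954 (tumour 2) to 1.71 (hyperplasia 2), and Col6a2 over Col6a1 from 0.665 to 0.828. Col4a2 over Col4a1 ran from 0.393 to 0.543, with the tumours highest. The ratio of Col14a1 over Col12a1, FACIT chains of different collagen types, was the widest, from 0.635 in tumour 2 to 16.2 in lactation. Col5a3 over Col5a2, both chains of type V collagen, ran from 0.113 in tumour 1 to 0.808 in hyperplasia 2.

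**Figure D2:**
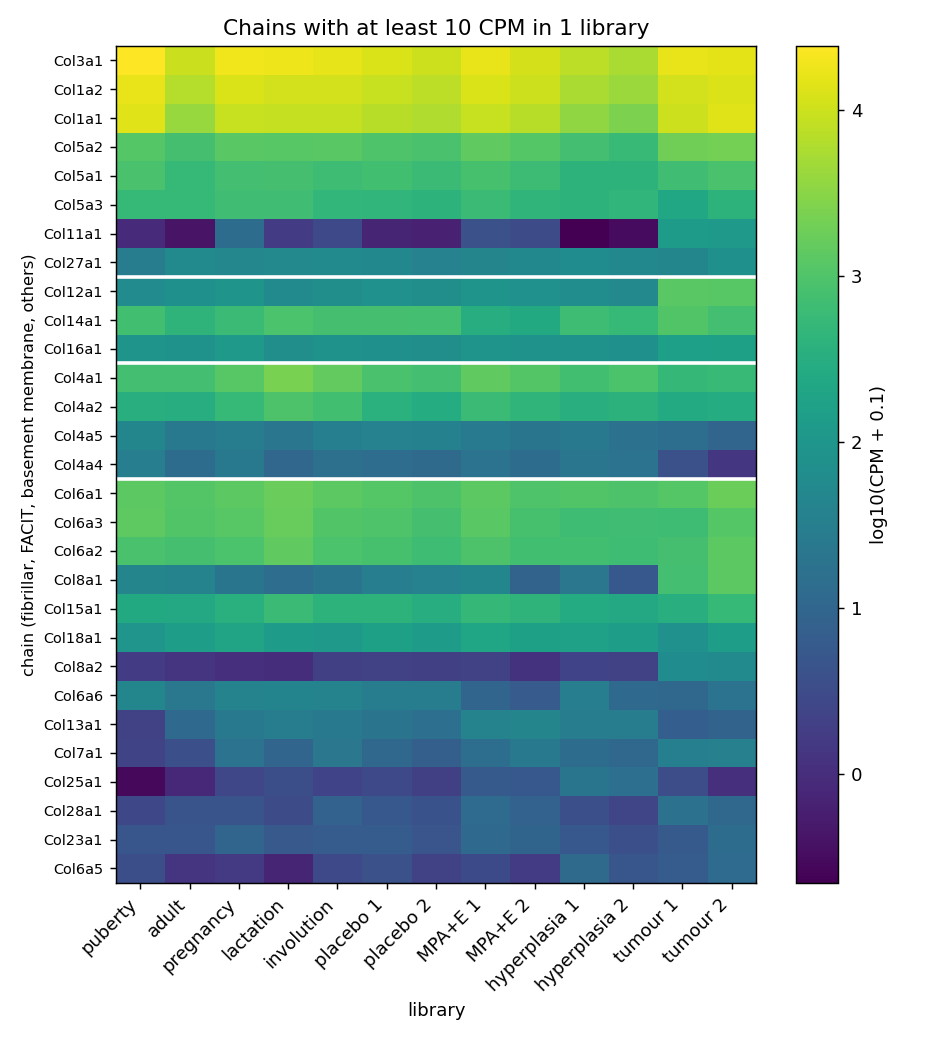
Heat map of log10(CPM + 0.1) for the 29 chains with at least 10 CPM in 1 library (rows, white lines separate fibrillar, FACIT, basement membrane and other chains) in the 13 libraries (columns). Col12a1, Col8a1, Col8a2 and Col11a1 are brightest in the 2 tumour columns, where Col11a1 reaches 131 CPM.

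The stage libraries ask how collagen transcripts of fibroblasts differ along gland development. Of 24 chains with at least 10 CPM in 1 stage, 15 were at least 2 fold apart between their highest and lowest stage, against 18.9% of the 8533 genes with at least 10 CPM, and the median ratio was 2.13 against 1.54 over those genes. With 1 library per stage there is no test, and the intervals cover counting error only. Of the 15 chains, 7 were highest in puberty, 5 in lactation, 2 in pregnancy and 1 in involution, and 8 were lowest in the adult.

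Col1a1, Col3a1 and Col1a2, the main fibril chains, were highest in puberty and lowest in the adult virgin gland. Col1a1 had 13995, 4058, 9249.6, 8754 and 8693 CPM in puberty, adult, pregnancy, lactation and involution, so puberty was 3.45 times (95% interval 3.43 to 3.46) the adult. Col3a1 had 24247, 9685, 18951, 18294 and 15601 CPM in the same order, a ratio of 2.50 times (95% interval 2.50 to 2.51). Col1a2 had 16588, 6559.9, 12797, 11149 and 10755 CPM, a ratio of 2.53 times (95% interval 2.52 to 2.54). Pregnancy, lactation and involution lay between puberty and the adult for all of these 3 chains. Of the type V chains, which help to set fibril width, Col5a1 was 1.71 times as high in puberty as in the adult, Col5a2 1.63 times as high in pregnancy as in the adult, and Col5a3 1.48 times as high in lactation as in involution. Col11a1, a minor fibrillar chain best known from cartilage, had 0.777, 0.310, 13.3, 1.60 and 2.75 CPM, with pregnancy 43.0 times (95% interval 28.4 to 65.2) the adult.

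Col11a1 was one of the chains that moved with epithelial UMIs in the pregnancy library. There 10984 of 11775 barcodes held no UMI of the keratin markers, and the rest did. Col11a1 had 60.8 CPM in the barcodes with a keratin UMI and 9.50 CPM in the others, where pregnancy was 30.5 times the adult. Col9a1, Col9a2 and Col9a3 (type IX, a FACIT collagen of cartilage) had 38.0, 53.1 and 41.8 CPM in keratin barcodes and 0.0892, 0.646 and 1.40 CPM without them. Col17a1, a hemidesmosome collagen of basal epithelium, had 51.4 and 0.357 CPM, and Col7a1, the anchoring fibril chain, 91.6 and 12.3 CPM. The part of epithelial RNA in these levels was not tested. The lineage limits stood in for a doublet caller, which was not run.

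Col4a1 and Col4a2, the main basement membrane chains, were highest in lactation. Col4a1 had 747, 768, 1183, 2319.6 and 1516 CPM in stage order, with lactation 3.10 times (95% interval 3.07 to 3.14) puberty (the adult was lowest with CPM over the UMIs of other genes), and Col4a2, its head-to-head neighbour, had 319.5, 307, 516, 942 and 708 CPM, with lactation 3.07 times (95% interval 3.03 to 3.12) the adult. Both were second highest in involution. Col4a4, Col4a5 and Col4a6, minor chains of the same family, were lowest in lactation, and Col4a3 was highest in involution. Col4a4 had 31.6, 13.2, 24.4, 9.94 and 16.0 CPM and Col4a5 45.8, 23.9, 30.6, 21.5 and 33.5 CPM, both highest in puberty and lowest in lactation, with ratios of 3.18 and 2.13.

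Among the chains that link or anchor the matrix, Col15a1 had 258, 249, 354, 606 and 399 CPM and Col14a1, a FACIT chain on fibril surfaces, 720.4, 427, 609, 913 and 794 CPM. Both were highest in lactation and lowest in the adult, by 2.44 and 2.14 times. Col18a1, the source of endostatin, had 93.5, 142, 195, 138 and 118 CPM and peaked in pregnancy (2.08 times puberty). Col13a1, a transmembrane collagen, had 1.98, 11.7, 24.1, 28.9 and 24.3 CPM, so lactation was 14.6 times (95% interval 11.9 to 17.9) puberty. Cells with UMIs of Crabp1 and Pla2g7, in which Col13a1 was concentrated (below), made up 0.154%, 1.88%, 0.577%, 2.25% and 1.89% of fibroblasts in stage order. The part of this cell share in the Col13a1 ratio was not tested. Col7a1 had 2.33, 3.63, 18.2, 9.75 and 22.3 CPM and was highest in involution, 9.55 times (95% interval 7.90 to 11.6) puberty. Its highest stage was pregnancy with at most 1 UMI of each lineage gene and without the limits on lineage genes and Dcn. Col8a1, a chain of the hexagonal type VIII network, had 43.2, 39.3, 19.7, 14.0 and 19.6 CPM, and Col6a6, a type VI chain, 46.4, 22.5, 39.3, 42.2 and 40.2 CPM. Both were highest in puberty, by 3.09 and 2.06 times their lowest stage, lactation for Col8a1 and the adult for Col6a6. The remaining 9 chains, Col5a1, Col5a2, Col5a3, Col6a1, Col6a2, Col6a3, Col12a1, Col16a1 and Col27a1, moved by 1.48 to 1.84 times.

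MPA+E was compared with placebo to ask what the hormones change. Under MPA+E 5 chains rose and 3 fell of 38 tested, against 2.68% and 1.63% of the 15662 genes tested. The chains that rose were Col11a1, Col13a1, Col25a1, Col28a1 and Col23a1, all of them below 50 CPM in these libraries, and those that fell were Col6a6, Col14a1 and Col4a5. The main fibril and microfilament chains did not pass the edgeR test, and the median log2 fold change of the 38 chains was 0.29 against 0.01 over all genes. DESeq2 also called Col1a2, Col5a2, Col4a1, Col4a2 and Col7a1, among 713 genes higher and 647 lower.

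Of the transmembrane collagens Col13a1, Col17a1, Col23a1 and Col25a1, 3 rose and Col17a1 did not pass (1.43 ± 0.42 (SE), adjusted p = 0.155). Col13a1 had 18.8 and 15.3 CPM under placebo and 39.6 and 44.5 CPM under MPA+E, a log2 change of 1.32 ± 0.13 (SE), adjusted p = 0.0121. Col25a1 had 2.76 and 1.90 CPM under placebo and 5.81 and 5.24 CPM under MPA+E (1.27 ± 0.19 (SE), adjusted p = 0.0331). Col23a1 had 6.27 and 4.56 CPM under placebo and 11.6 and 9.21 CPM under MPA+E (0.96 ± 0.16 (SE), adjusted p = 0.0476), and was called in 5 of 11 alternatives, but not with limma-voom (adjusted p = 0.0514) or without the limits on lineage genes and Dcn (adjusted p = 0.101). In each of these 3 chains both MPA+E libraries lay above both placebo libraries. Crabp1 and Pla2g7 cells, in which Col13a1 and Col25a1 were concentrated (below), made up 7.04% and 5.19% of placebo and 10.5% and 10.6% of MPA+E fibroblasts. Outside these cells Col13a1 had 11.4 and 10.6 CPM under placebo and 19.9 and 28.3 CPM under MPA+E, and the part of the cell share in the rise was not tested. Col28a1, a beaded-filament collagen, had 5.34 and 4.05 CPM under placebo and 12.5 and 8.61 CPM under MPA+E (1.18 ± 0.19 (SE), adjusted p = 0.0433), a call lost with limma-voom (adjusted p = 0.0586) and without the limits on lineage genes and Dcn (adjusted p = 0.0850). Col11a1 rose from 0.631 and 0.553 CPM to 3.81 and 3.24 CPM (2.58 ± 0.19 (SE), adjusted p = 0.00738). Without the limits on lineage genes and Dcn its change was 0.97 (adjusted p = 0.415).

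Col14a1 fell most among the abundant chains. It had 781 and 746 CPM in the placebo libraries and 299 and 253 CPM in the MPA+E libraries, with no overlap and a change of -1.46 ± 0.12 (SE), adjusted p = 0.00861. Col6a6 had 29.8 and 29.8 CPM under placebo and 9.71 and 6.19 CPM under MPA+E (-1.91 ± 0.20 (SE), adjusted p = 0.0136), and Col4a5, a minor basement membrane chain, had 38.6 and 35.5 CPM under placebo and 25.3 and 20.1 CPM under MPA+E (-0.70 ± 0.11 (SE), adjusted p = 0.0375), not called with no filter on low counts (adjusted p = 0.0527). Of the 20 chains that reached 50 CPM in some library, Col11a1 and Col14a1 passed and the other 18 lay between -0.41 (Col8a1) and 0.68 (Col4a2). Col1a1 had 7066 and 6143 CPM under placebo and 9343 and 7089 CPM under MPA+E (0.32 ± 0.17 (SE), adjusted p = 0.419) and Col3a1 12638 and 9996 CPM under placebo and 16393 and 11307 CPM under MPA+E (0.30 ± 0.22 (SE), adjusted p = 0.564). For Col3a1 the groups overlapped, since MPA+E 2 lay below placebo 1. Col4a1 had 873 and 742 CPM under placebo and 1428 and 1069 CPM under MPA+E and did not pass (0.64 ± 0.15 (SE), adjusted p = 0.106), although both MPA+E libraries were higher. With 2 libraries in each group, dropping placebo 1 or placebo 2 left 0 chains past the edgeR threshold, with 12 of 42 and 11 of 41 chains at an unadjusted p under 0.05. In these fits 1803 of 16173 and 1690 of 16279 genes had such a p, and 22 genes rose and 5 fell without placebo 1, and 1 rose and 0 fell without placebo 2.

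The hormone effect was also compared between Pi16 and Dpp4 cells, the barcodes with at least 1 UMI of each of these markers of progenitor-like fibroblasts, and the other fibroblasts of the same libraries. The difference passed for 4 of 39 chains tested, 2 higher and 2 lower, against 1.64% and 2.42% of the 15169 genes tested. Col14a1 had 1134 and 1055 CPM in gated placebo cells and 311 and 226 CPM in gated MPA+E cells. In the other cells it had 369.7 and 336 CPM under placebo and 288 and 279 CPM under MPA+E. The level of gated cells under MPA+E was thus near that of the other cells. The effect was -2.00 ± 0.17 (SE), adjusted p = 0.00633 in gated cells and -0.32 ± 0.12 (SE), adjusted p = 0.317 in the others, and the difference was -1.71 ± 0.14 (SE), adjusted p = 0.00206.

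Col4a1 and Col4a2 moved the opposite way. Col4a1 had 386 and 357 CPM in gated placebo cells and 997 and 635 CPM in gated MPA+E cells, against 1441 and 1252 CPM and 1859 and 1476 CPM in the other cells. Its effect was 1.16 ± 0.21 (SE), adjusted p = 0.0396 in gated cells, and the difference from the others was 0.82 ± 0.12 (SE), adjusted p = 0.0156. The Col4a2 difference was 0.69 ± 0.13 (SE), adjusted p = 0.0350, with an effect of 1.13 ± 0.23 (SE), adjusted p = 0.0496 in gated cells. Col12a1, a FACIT chain, differed by -0.82 ± 0.14 (SE), adjusted p = 0.0263, with 67.1 and 53.6 CPM under placebo and 94.7 and 92.1 CPM under MPA+E in the other cells. Its gated groups overlapped. Leaving out either placebo library kept Col14a1 past the threshold and ended the call of the other 3 chains.

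**Figure D3:**
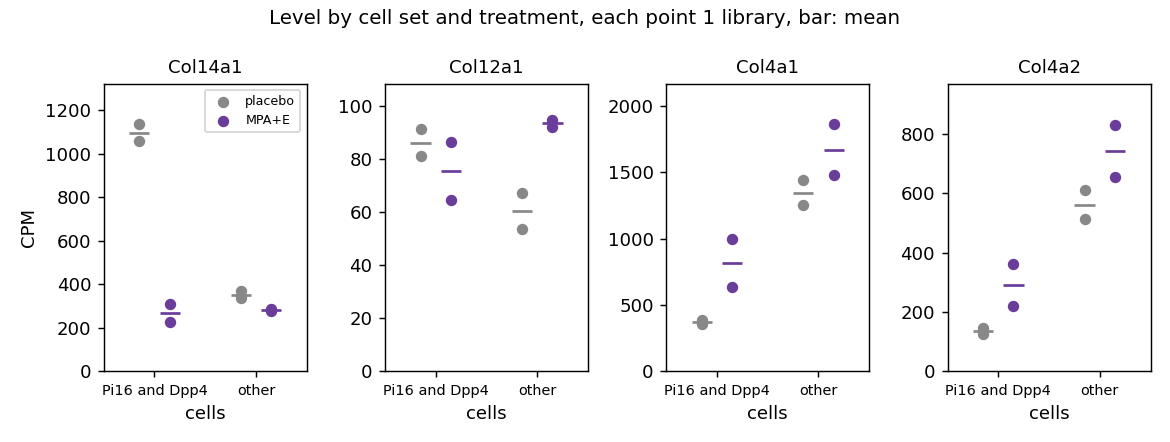
CPM of Col14a1, Col12a1, Col4a1 and Col4a2 (axes from 0) in barcodes with Pi16 and Dpp4 UMIs and in the other fibroblasts, each point 1 placebo or MPA+E library and each bar the mean of 2. Col14a1 is highest in gated placebo cells, at 1134 and 1055 CPM.

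Tumour fibroblasts were compared with those of hyperplastic glands of the same mice. In tumours 10 chains rose and 5 fell of 40 tested, against 15.4% and 14.1% of the 16365 genes tested. Col11a1, Col8a1, Col8a2, Col12a1, Col28a1, Col1a1, Col5a2, Col7a1, Col5a1 and Col16a1 rose, and Col4a3, Col25a1, Col4a4, Col13a1 and Col4a1 fell. The median log2 fold change was 0.44 over the 40 chains and -0.02 over all genes. By class, 4 of 11 fibrillar and 2 of 6 FACIT chains rose and 0 fell, while 3 of 6 basement membrane chains fell and 0 rose.

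The largest rises were in a minor fibrillar chain, the type VIII network chains and a FACIT chain. Col11a1 had 0.122 and 0.206 CPM in hyperplasia and 131 and 115 CPM in tumours (log2 fold change 9.50 ± 0.54 (SE), adjusted p = 0.00133). Its hyperplasia levels were 7 and 15 UMIs, so the size of the fold is uncertain. Col8a1 had 22.4 and 5.44 CPM in hyperplasia and 767 and 1292 CPM in tumours (6.55 ± 0.64 (SE), adjusted p = 0.00405), and Col8a2, which encodes its partner chain, had 2.15 and 1.96 CPM in hyperplasia and 63.3 and 55.6 CPM in tumours (4.86 ± 0.23 (SE), adjusted p = 0.000961). Col12a1 had 65.3 and 52.6 CPM in hyperplasia and 1268 and 1180.3 CPM in tumours (4.38 ± 0.19 (SE), adjusted p = 0.000961). In all of these the tumour libraries lay above every other library of the series. A Col12a1 UMI was found in 80.5% and 93.8% of tumour barcodes and in 25.8% and 22.8% of hyperplasia barcodes, at median depths of 10724, 20133, 8590.5 and 8252.5 UMIs in that order. These 4 chains passed in all 13 alternative fits, including those that left out a library. In wild-type libraries Col8a1, Col8a2 and Col12a1 were higher in cells with UMIs of Thbs4 and Cilp (below). Cells of this kind made up 2.19% and 0.481% of hyperplasia and 9.71% and 18.6% of tumour fibroblasts. The part of this cell share in the rises was not tested. Of the 4 chondrocyte-like genes, Comp had 0.280 and 0.712 CPM in hyperplasia and 13.8 and 11.8 CPM in tumours, Chad 0.0175 and 0.0137 CPM and 1.11 and 1.98 CPM, and Matn3 0.0175 and 0 CPM and 1.55 and 3.03 CPM. Acan was at 0.161 CPM or less in all 4 libraries. The 4 genes summed to 0.350 and 0.754 CPM in hyperplasia and 16.5 and 17.0 CPM in tumours, and the part of such cells was not tested.

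Col1a1 and Col5a2 rose among the major fibril chains, by less. Col1a1 had 3561 and 2504 CPM in hyperplasia and 9944 and 14029 CPM in tumours (1.98 ± 0.57 (SE), adjusted p = 0.0436), with 4058 and 13995 CPM in the adult and puberty libraries. Col5a2 had 763 and 581 CPM in hyperplasia and 1942 and 2153 CPM in tumours (1.62 ± 0.26 (SE), adjusted p = 0.0116). Col3a1 had 7525 and 5468 CPM in hyperplasia and 16853 and 14923 CPM in tumours and did not pass (1.30 ± 0.44 (SE), adjusted p = 0.0667), nor did Col1a2 with 5642 and 4289 CPM in hyperplasia and 10901 and 13379 CPM in tumours (1.30 ± 0.44 (SE), adjusted p = 0.0675), although the groups did not overlap. DESeq2 called both Col3a1 and Col1a2, among 3067 genes higher and 2590 lower. Col5a1 and Col16a1, a FACIT chain, rose by 0.97 and 0.97 on the log2 scale. The Col5a1 call was also lost with the mitochondrial limit of 5% (adjusted p = 0.0517), and both Col1a1 and Col5a1 were lost without tumour 2. With the mouse as a block, which pairs the libraries by animal, Col1a1 (adjusted p = 0.0582) and Col5a1 (adjusted p = 0.0530) were not called, and Col20a1, Col26a1, Col2a1 and Col4a6 were.

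Col7a1, the anchoring fibril chain, had 13.3 and 10.9 CPM in hyperplasia and 32.5 and 34.8 CPM in tumours (1.49 ± 0.19 (SE), adjusted p = 0.00685). Col28a1 had 3.64 and 2.40 CPM in hyperplasia and 17.3 and 10.6 CPM in tumours (2.23 ± 0.39 (SE), adjusted p = 0.0139).

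The chains of the basement membrane that passed, 3 of 6, were lower in tumours. Col4a3 had 6.91 and 7.18 CPM in hyperplasia and 0.579 and 0.149 CPM in tumours (-4.51 ± 0.65 (SE), adjusted p = 0.00883), and Col4a4, its head-to-head neighbour, had 21.1 and 18.1 CPM in hyperplasia and 3.85 and 1.29 CPM in tumours (-3.09 ± 0.63 (SE), adjusted p = 0.0192). Col4a1 had 720.2 and 909 CPM in hyperplasia and 495 and 565 CPM in tumours (-0.61 ± 0.17 (SE), adjusted p = 0.0412), a fall that lost its call when any 1 of the 6 libraries was left out (adjusted p = 0.0518 to 0.191). Of the transmembrane collagens, Col25a1 and Col13a1 fell, while Col23a1 (0.97, adjusted p = 0.118) and Col17a1 (-0.57, adjusted p = 0.433) did not pass. Col25a1 had 20.5 and 15.5 CPM in hyperplasia and 3.36 and 1.00 CPM in tumours (-3.23 ± 0.54 (SE), adjusted p = 0.0125), and Col13a1 had 30.5 and 29.3 CPM in hyperplasia and 7.02 and 8.85 CPM in tumours (-1.92 ± 0.54 (SE), adjusted p = 0.0410). The Col13a1 call was lost with edgeR (adjusted p = 0.0747) and when any 1 of the 4 raGFP-Wnt1 libraries was left out (adjusted p = 0.0507 to 0.171). Col25a1 and Col13a1 were concentrated in Crabp1 and Pla2g7 cells of the wild-type libraries (below). Such cells made up 29.3% and 28% of hyperplasia and 8.11% and 11.2% of tumour fibroblasts. The part of this cell share in the 2 falls was not tested. The abundant chains that did not pass were Col1a2, Col3a1, Col4a2, Col5a3, Col6a1, Col6a2, Col6a3, Col14a1, Col15a1, Col18a1 and Col27a1, between -0.54 (Col5a3) and 1.30 (Col3a1). Without hyperplasia 1 or hyperplasia 2 the calls left were Col11a1, Col8a1, Col8a2 and Col12a1 (4 and 4 chains), where 131 and 176 genes rose and 86 and 163 fell. Without tumour 1 there were 23 chains, where 3586 of 17110 genes rose and 3494 fell.

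**Figure D4:**
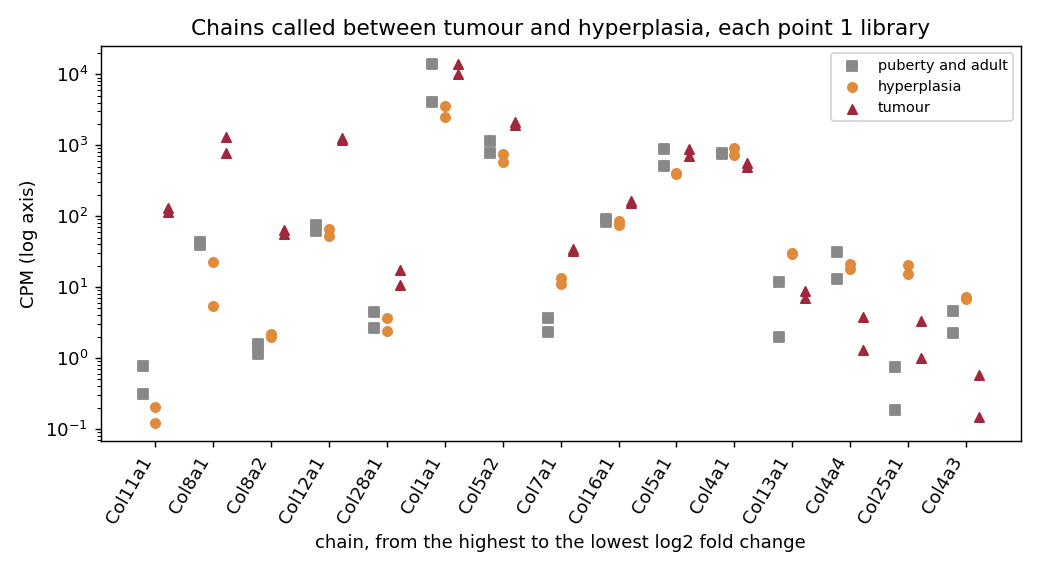
CPM on a log axis of the 15 chains called between tumour and hyperplasia, ordered by log2 fold change, with 1 point per library (squares puberty and adult, circles hyperplasia, triangles tumour). The tumour points of Col11a1, Col8a1, Col8a2 and Col12a1 lie above all others, and those of Col4a3 and Col4a4 below.

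Hyperplastic glands were compared with the puberty and adult libraries joined as normal tissue. Here 3 chains rose and 0 fell of 40 tested by limma-voom, against 7.94% and 6.56% of the 16365 genes tested, and 14 of the 40 chains had an unadjusted p under 0.05, as did 5785 of all genes tested. DESeq2 called 4 chains higher and 7 lower, among 2039 and 2016 genes, and edgeR 2 higher and 0 lower, among 1378 and 1194 genes. The chains lower with DESeq2 were Col1a1, Col1a2, Col3a1, Col5a1, Col6a3, Col8a1 and Col11a1, and Col6a5 was added to the higher ones. Col25a1 had 0.184 and 0.755 CPM in puberty and adult and 20.5 and 15.5 CPM in hyperplasia (log2 fold change 5.37 ± 0.86 (SE), adjusted p = 0.0205). Col13a1 had 1.98 and 11.7 CPM in puberty and adult and 30.5 and 29.3 CPM in hyperplasia (2.43 ± 0.62 (SE), adjusted p = 0.0490), and Col7a1 2.33 and 3.63 CPM in puberty and adult and 13.3 and 10.9 CPM in hyperplasia (1.97 ± 0.24 (SE), adjusted p = 0.0114). The hyperplasia libraries lay above both normal libraries for each of these chains. Col13a1 was called in 6 of 13 alternatives, and not with edgeR (adjusted p = 0.0791), the mitochondrial limit of 5% (adjusted p = 0.0585) or without the limits on lineage genes and Dcn (adjusted p = 0.0567). These chains were concentrated in Crabp1 and Pla2g7 cells, described below, which made up 0.154% and 1.88% of puberty and adult fibroblasts and 29.3% and 28% of hyperplasia fibroblasts. Outside these cells Col13a1 had 1.84 and 9.43 CPM in puberty and adult and 10.4 and 9.18 CPM in hyperplasia, with overlapping groups. Col25a1 outside them had 0.164 and 0.589 CPM against 4.85 and 2.70 CPM, without overlap. Col7a1 outside them had 2.07 and 2.96 CPM against 5.86 and 3.76 CPM. The part of the cell share in these rises was not tested. The 20 abundant chains lay between -1.98 (Col8a1) and 0.60 (Col8a2) and 0 passed with limma-voom. Col3a1 was among the lower ones, with 7525 and 5468 CPM in hyperplasia against 24247 and 9685 CPM (-1.30 ± 0.44 (SE), adjusted p = 0.0905), and Col1a1 changed by -1.38 ± 0.56 (SE), adjusted p = 0.135. The normal group joined 2 unlike stages. Leaving out puberty, the adult, hyperplasia 1 or hyperplasia 2 ended most calls, among the chains and among all genes. Over the 13 alternatives the log2 fold change ran from 4.54 to 6.46 for Col25a1, 1.35 to 3.85 for Col13a1 and 1.72 to 2.30 for Col7a1. Among them was a limma-voom fit with a term for mouse 2 of the raGFP-Wnt1 libraries, so its folds stand for mouse 1 against normal. With it Col13a1 was not called (adjusted p = 0.069).

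The chains were then compared between kinds of fibroblast inside each wild-type library, with gates of at least 1 UMI of each of 2 marker genes that are no collagens. Each library entered as a block, so its gated cells were set against its other fibroblasts. A gate needs UMIs of its genes, and it picked deeper cells in some libraries, with median UMIs 0.697 to 1.44 times those of the other cells.

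Pi16 and Dpp4 cells, 38.9% to 53.0% of fibroblasts in 9 libraries, gave a lower share of their UMIs to most collagen chains. Collagen chains took 2.39% to 6.72% of UMIs in gated cells and 3.05% to 6.03% in the others, with gated cells higher in 1 of 9 libraries. Of 40 chains tested, 2 were higher and 27 lower, against 29.7% and 28% of the 15660 genes tested, and the median log2 fold change was -0.61 against 0.01. Col14a1 and Col4a5 were higher. Col1a1, Col3a1, Col5a2, Col5a3, Col11a1, Col24a1, Col27a1, Col9a1, Col9a2, Col4a1, Col4a2, Col4a3, Col4a4, Col6a1, Col6a2, Col6a3, Col7a1, Col8a1, Col8a2, Col13a1, Col15a1, Col17a1, Col18a1, Col23a1, Col25a1, Col26a1 and Col28a1 were lower, of which Col24a1 was not called with at least 2 UMIs of each gene (adjusted p = 0.0600). Col9a1 had 142 UMIs in pregnancy and at most 2 in any other wild-type library. Of its pregnancy UMIs 138 lay in keratin barcodes, as did 193 of 222 for Col9a2. The medians in gated and other cells were 0 and 0.0240 CPM for Col9a1 and 0.0243 and 0.193 CPM for Col9a2. Both calls therefore carry little weight. The 3 main fibril chains differed little, by -0.29 (Col1a1), -0.26 (Col3a1) and -0.24 (Col1a2, adjusted p = 0.0615).

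Col15a1, Col27a1 and Col18a1 were the most depleted of the chains with at least 50 CPM in a wild-type library, followed by Col4a2 and Col4a1. Col15a1 had a median of 121 CPM (range 75.7 to 338) in gated cells and 599 CPM (416 to 935) in the other cells, with no overlap (log2 fold change -2.21 ± 0.15 (SE), adjusted p = 2.39e-07). Col4a1 had a median of 581 CPM (range 352 to 1508) in gated cells and 1476 CPM (1140.5 to 3316) in the other cells (-1.38 ± 0.11 (SE), adjusted p = 5.64e-07), and Col18a1 a median of 57.8 CPM (range 36.3 to 96.3) in gated cells and 254 CPM (152 to 331) in the other cells (-1.90 ± 0.16 (SE), adjusted p = 1.36e-06). Gated cells were lower in all 9 libraries for these chains. Col4a2 changed by -1.56 and Col27a1, a fibrillar chain, by -2.00. Col13a1 had a median of 4.84 CPM (range 0.490 to 12.2) in gated cells and 38.2 CPM (3.75 to 79.4) in the other cells (-3.14 ± 0.26 (SE), adjusted p = 9.35e-07). Col7a1 had a median of 2.59 CPM (range 0.603 to 7.31) in gated cells and 20.6 CPM (4.38 to 43.3) in the other cells (-2.82 ± 0.15 (SE), adjusted p = 6.57e-08). Col25a1 had the lowest fold change, -3.29.

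Col14a1 went the opposite way, with a median of 925 CPM (range 226 to 1168) in gated cells and 369.7 CPM (251 to 599) in the other cells (0.93 ± 0.18 (SE), adjusted p = 0.000716). It was higher in gated cells in 8 of 9 libraries, and the exception was MPA+E 2. Col4a5 was higher in 9 of 9 libraries (0.93 ± 0.11 (SE), adjusted p = 1.74e-05), while Col4a1, Col4a2, Col4a3 and Col4a4 were lower. Of the abundant chains those without a call were Col1a2, Col16a1, Col5a1 and Col12a1, between -0.24 (Col1a2) and 0.21 (Col12a1).

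Fabp4 and Pparg cells, genes of preadipocytes and fat cells, made up 1.04% to 8.82% of fibroblasts. Of 40 chains tested 13 were higher and 10 lower, against 12.9% and 17% of the 15538 genes tested. Col18a1, Col4a2, Col4a1, Col15a1, Col5a3, Col27a1, Col3a1, Col5a2, Col6a2, Col6a3, Col19a1, Col23a1 and Col28a1 were higher, and Col8a1, Col9a2, Col4a4, Col4a5, Col6a5, Col6a6, Col7a1, Col14a1, Col16a1 and Col25a1 lower. With limma-voom Col9a2 was not called (log2 fold change -0.15, adjusted p = 0.775), nor was Col6a5 (adjusted p = 0.0553). With at least 2 UMIs of each gene Col19a1 (adjusted p = 0.103) and Col6a2 (adjusted p = 0.394) were not called. Col19a1 was tested in 2 wild-type gates and entered here through gated cells, with at most 0.105 CPM in the other cells. Its gated median was 0.135 CPM, and gated cells were higher in 6 of 9 libraries, so its call carries little weight. Col18a1 had a median of 436 CPM (range 195 to 550.5) in gated cells and 129 CPM (79.3 to 189.8) in the other cells (1.54 ± 0.11 (SE), adjusted p = 3.04e-08). Col4a1 had a median of 1937 CPM (range 1484 to 3884) in gated cells and 1036 CPM (636 to 2225) in the other cells (0.93 ± 0.08 (SE), adjusted p = 3.17e-07), higher in 9 of 9 libraries. Col14a1 had a median of 272 CPM (range 160.1 to 536) in gated cells and 744 CPM (255 to 935) in the other cells (-1.02 ± 0.13 (SE), adjusted p = 1.97e-05). Abundant chains that did not pass were Col8a2, Col5a1, Col12a1, Col1a1, Col1a2, Col6a1 and Col11a1, between -0.39 (Col8a2) and 0.36 (Col11a1).

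Crabp1 and Pla2g7 cells had at least 20 barcodes in 8 libraries. Of 38 chains tested 17 were higher and 11 lower, against 18.2% and 24.5% of the 15542 genes tested. Col25a1, Col13a1, Col7a1, Col26a1, Col24a1, Col11a1, Col15a1, Col27a1, Col18a1, Col4a1, Col4a2, Col6a1, Col6a2, Col23a1, Col5a2, Col1a2 and Col16a1 were higher. Col8a1, Col28a1, Col4a5, Col6a6, Col4a4, Col9a3, Col6a5, Col14a1, Col6a3, Col5a3 and Col5a1 were lower. Col9a3 was called in neither alternative, at an adjusted p of 0.0532 with limma-voom and 0.102 with at least 2 UMIs of each gene. With at least 2 UMIs Col16a1 (adjusted p = 0.726) and Col1a2 (adjusted p = 0.309) were not called either. Among the chains that were higher, Col25a1, Col13a1 and Col7a1 differed most. Col13a1 had a median of 150.2 CPM (range 122 to 225) in gated cells and 21.0 CPM (9.43 to 28.3) in the other cells (3.09 ± 0.16 (SE), adjusted p = 1.6e-09). Col7a1 had a median of 73.2 CPM (range 46.1 to 165) in gated cells and 8.32 CPM (2.96 to 20) in the other cells (3.03 ± 0.14 (SE), adjusted p = 6.78e-10), and Col25a1 a median of 29.6 CPM (range 11.3 to 39.7) in gated cells and 1.96 CPM (0.589 to 2.62) in the other cells (3.97 ± 0.15 (SE), adjusted p = 2.66e-10). None of these 3 chains overlapped between gated and other cells. Col8a1 had a median of 1.20 CPM (range 0.320 to 10.5) in gated cells and 26.9 CPM (9.68 to 50.2) in the other cells (-4.16 ± 0.40 (SE), adjusted p = 8.07e-07) and was lower in all 8 libraries. Col15a1 had a median of 1125 CPM (range 670.1 to 1285) in gated cells and 355 CPM (242 to 589) in the other cells (1.44 ± 0.08 (SE), adjusted p = 5.09e-09). The test was not passed by the abundant chains Col12a1, Col3a1, Col1a1 and Col8a2, between -0.22 (Col12a1) and 0.16 (Col8a2).

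Thbs4 and Cilp cells carried the highest type VIII levels of the wild-type gates. They made up 4.09% to 14.1% of fibroblasts, and of 41 chains tested 20 were higher and 4 lower, against 13.6% and 16.1% of the 15479 genes tested. Col8a1 had a median of 315 CPM (range 88.6 to 564) in gated cells and 4.88 CPM (1.26 to 6.56) in the other cells (5.97 ± 0.34 (SE), adjusted p = 3.31e-08), and Col8a2 a median of 7.22 CPM (range 2.60 to 19.2) in gated cells and 0.874 CPM (0.562 to 1.28) in the other cells (3.15 ± 0.26 (SE), adjusted p = 1.12e-06). Neither chain's levels overlapped between gated and other cells. All 6 basement membrane chains were higher, from 0.62 (Col4a2) to 1.34 (Col4a3). Col12a1 had a median of 136 CPM (range 108 to 233) in gated cells and 65.4 CPM (50.4 to 88.2) in the other cells (1.20 ± 0.13 (SE), adjusted p = 9.97e-06), also without overlap. Col6a6, Col6a2, Col6a1 and Col6a3 were higher by 1.19, 0.84, 0.72 and 0.66, and Col22a1, Col7a1, Col17a1, Col15a1, Col5a3, Col16a1 and Col5a1 were higher as well, Col5a1 not with at least 2 UMIs of each gene (adjusted p = 0.0520). Col22a1 was tested in no other wild-type gate and entered through gated cells, with at most 0.0392 CPM in the other cells. Its gated median was 0 CPM, and gated cells were higher in 4 of 9 libraries, so its call carries little weight. Col6a5, Col28a1, Col23a1 and Col18a1 were lower. The abundant chains that did not pass were Col27a1, Col1a1, Col1a2, Col3a1, Col14a1, Col5a2 and Col11a1, between -0.26 (Col27a1) and 0.46 (Col11a1).

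Gdf10 and Clec11a cells made up 2.60% to 10.4% of fibroblasts, and of 41 chains tested 11 were higher and 13 lower, against 16.2% and 20.5% of the 15289 genes tested. This was a gate with all 3 main fibril chains higher: Col1a1 by 0.31 ± 0.04 (SE), adjusted p = 1.21e-05, in 9 of 9 libraries, Col1a2 by 0.19 and Col3a1 by 0.13. With at least 2 UMIs of each gate gene 6 chains were higher, among 1846 of 15481 genes. Not called there were Col1a2 (adjusted p = 0.0651), Col3a1, with a change of -0.00220, Col15a1 (0.0640), Col4a6 (0.0683) and Col6a5 (0.257), and among the lower chains Col4a5 (0.145). With at least 1 UMI of each, Col4a3, Col4a4, Col4a6, Col28a1, Col23a1, Col6a5, Col15a1 and Col16a1 were also higher. Col25a1, Col8a1, Col17a1, Col13a1, Col7a1, Col26a1, Col12a1, Col6a6, Col14a1, Col4a5, Col5a3, Col6a3 and Col5a1 were lower. Col12a1 had a median of 28.4 CPM (range 20.3 to 56.0) in gated cells and 78.2 CPM (56.3 to 95.9) in the other cells (-1.22 ± 0.13 (SE), adjusted p = 1.19e-06), with no overlap. Col4a4 changed by 0.99, and no call was made for the abundant chains Col11a1, Col18a1, Col27a1, Col5a2, Col6a2, Col6a1, Col4a1, Col4a2 and Col8a2, between -0.48 (Col11a1) and 0.21 (Col8a2).

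**Figure D5:**
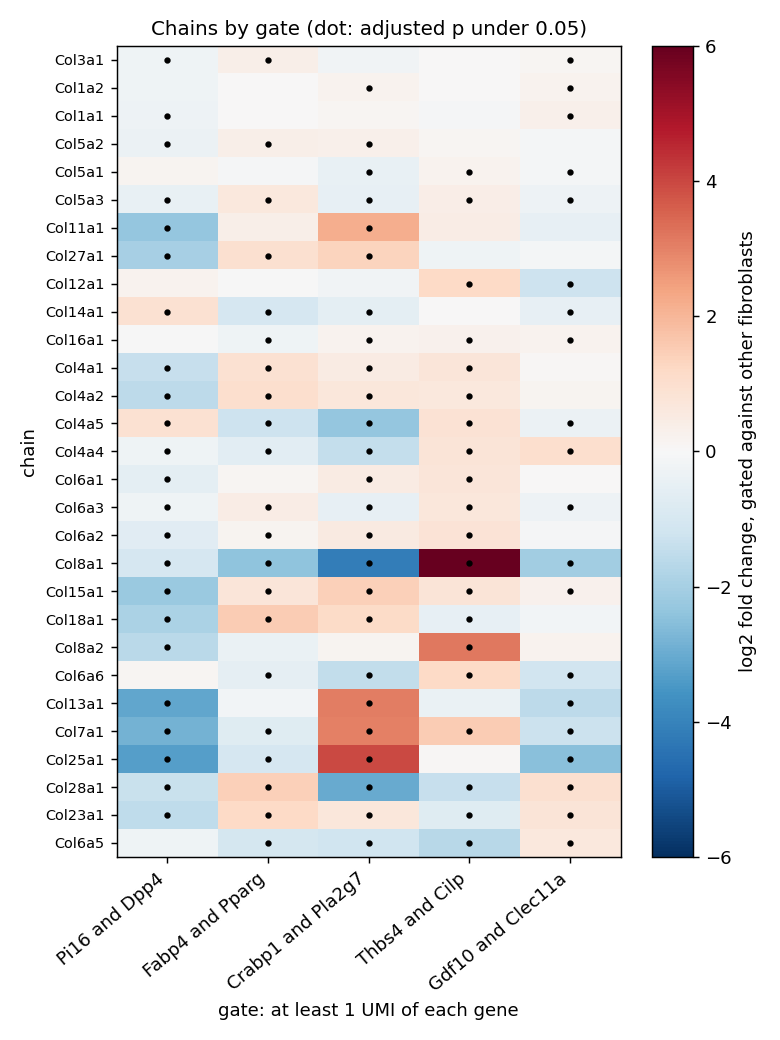
Log2 fold change of the 29 chains with at least 10 CPM in 1 library (rows) in gated against other fibroblasts of the wild-type libraries for 5 gates (columns), red higher and blue lower, with a dot where the adjusted p is under 0.05. Col8a1 is dark red for Thbs4 and Cilp (5.97) and blue for the other gates.

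In the tumours, Lrrc15 and Acta2 cells, markers of myofibroblastic cells, made up 24.8% and 57.2% of fibroblasts, with median UMIs 1.43 to 1.48 times those of the other cells. Only the 2 tumour libraries had at least 20 of them among the raGFP-Wnt1 libraries. Of the wild-type libraries, which were not used for this gate, 8 held 25 to 179 such barcodes, at most 2.02% of fibroblasts. Of 38 chains tested 0 were higher and 6 lower by edgeR, against 0.251% and 1.36% of the 14714 genes tested, with 19 of the chains and 3027 of the genes at an unadjusted p under 0.05. With limma-voom 0 chains were higher and 5 lower, among 35 and 198 genes, and Col4a4 was the call lost (adjusted p = 0.0507). Col4a3, Col25a1, Col4a4, Col6a5, Col6a6 and Col28a1 were lower, with log2 fold changes from -1.19 (Col28a1) to -4.60 (Col4a3). With at least 2 UMIs of each gate gene 1 of these, Col4a4, was called. Col12a1 had 2329 and 1394 CPM in gated cells of tumours 1 and 2 and 754 and 746 CPM in the others (1.23 ± 0.20 (SE), adjusted p = 0.0772), and Col11a1 had 299.99 and 144 against 49.2 and 56.5 CPM (1.95 ± 0.31 (SE), adjusted p = 0.0754). Col8a1 had 1506 and 1521 against 409.7 and 827 CPM (1.35 ± 0.25 (SE), adjusted p = 0.0966). For all 3 chains gated cells were higher in both tumours, the groups did not overlap, and the test did not pass. The other tumour fibroblasts held more of each than any hyperplasia library, and the part of the gated cells in the tumour levels was not tested.

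The enzymes that make and shape collagen were listed with their receptors as 4 groups: 19 genes of chain modification and folding, 8 of propeptide cleavage, 5 of crosslinking and 9 receptors. In tumours against hyperplasia, 12 of the 19 modification genes rose and 1 fell, against 15.4% and 14.1% of all genes tested. Without hyperplasia 1 and hyperplasia 2, 131 and 176 of all genes rose and 86 and 163 fell, against 2516 and 2303 with all libraries. Those that rose included P4ha3, a prolyl hydroxylase subunit (log2 fold change 3.45), P3h1 (1.58), P4ha2 (1.53) and the chaperone Serpinh1 (0.93), while Colgalt2 fell (-2.41). Of the others, 2 of 8 cleavage genes and 3 of 5 crosslinking genes rose, the latter Loxl3 (1.79), Lox (1.23) and Loxl1 (0.97). Of 8 receptors tested 3 rose and 1 fell. In hyperplasia against normal, 1 modification gene rose and 5 fell, 4 of 8 cleavage genes fell, and 1 crosslinking gene rose and 1 fell, against 7.94% and 6.56% of all genes. Without puberty, hyperplasia 1 or hyperplasia 2, only 5, 1 and 1 of all genes rose and 2, 1 and 0 fell. Under MPA+E, where 2.68% of all genes rose and 1.63% fell, P4ha3 (2.03), Plod2, a lysyl hydroxylase (1.20), and Lox (0.64) rose, and 2 cleavage genes and 3 of 9 receptors fell, Ddr2 among the receptors (-1.05). Nearly all calls of this comparison were lost without placebo 1 or placebo 2, as counted above.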

How the data were processed

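The authors deposited filtered raw UMI count matrices per library, made with Cell Ranger 6.1.2 on mm10 per the submitters' processing notes. No normalization had been applied, and replicates were not pooled. Features and barcodes were used for names only. The members and lists were chosen with earlier results of these data known. From the deposited counts, UMIs were summed per library over fibroblast barcodes (limits in the text), or per library and gate. MPA+E against placebo, gates and the interaction used edgeR 4.0.16 (quasi-likelihood test, TMM, filterByExpr), while voom weights and limma 3.58.1 served for the tumour comparisons, fitted on the normal, hyperplasia and tumour libraries together. DESeq2 1.42.0 was an alternative. Adjusted p-values are Benjamini-Hochberg values over all genes tested, and a call is an adjusted p under 0.05, two-sided. Folds are log2, and SE is their standard error. The scripts were tested on simulated counts.

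Every called chain is named, with levels for at most 12 by fold among those with 5 CPM in 1 library, and chains of at least 50 CPM are described in each comparison. Hyperplasia and tumour libraries of 1 number come from 1 mouse (correlation of residuals 0.201). Hormone replicates share only a number. Per the study's methods each hormone replicate held 2 females. Intervals cover counting error only. The levels of 1 marker list are not reported here.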

Additional observations from a re-analysis of the deposited data

Results flagged for a closer look

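For 4 chains the effect of MPA+E differed between Pi16 and Dpp4 cells and the other fibroblasts by the interaction test of edgeR. The differences of log2 fold changes were -1.71 for Col14a1, -0.82 for Col12a1, 0.82 for Col4a1 and 0.69 for Col4a2. Col14a1 was lower under MPA+E in gated cells in both libraries, and Col4a1 and Col4a2 were higher in both. Pi16 and Dpp4 cells made up 46.0% and 48.2% of placebo and 41.7% and 41.2% of MPA+E fibroblasts, and the part of this shift in the differences was not tested.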

How the results depend on the processing

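The number of chains called moved by over 1.5 times in these cases, and no other alternative moved it so far. For MPA+E against placebo 8 chains were called, 13 with DESeq2, 14 with a replicate block (by number, with residuals of same-numbered libraries correlated at 0.578), 5 without the limits on lineage genes and Dcn, and 0 to 10 when a library was left out. The 8 were among the 13 and the 14. DESeq2 added Col1a2, Col4a1, Col4a2, Col5a2 and Col7a1, and the block added Col15a1, Col16a1, Col4a1, Col4a2, Col5a2 and Col7a1. Over all genes 419 and 255 rose and fell, 713 and 647 with DESeq2, 1212 and 1123 with the block and 306 and 151 without those limits. For tumour against hyperplasia 15 were called, and 4 to 23 when a library was left out, with 17 under the replicate block by mouse, where 3297 and 2928 genes rose and fell in all, against 2516 and 2303. For hyperplasia against normal 3 were called, 11 with DESeq2 and 0 to 9 when a library was left out. In Lrrc15 and Acta2 cells 6 were called, and 1 with at least 2 UMIs of each gene, among 15 and 126 genes higher and lower. The difference of the MPA+E effect gave 4, and 1 to 15 when a library was left out, where 40 to 735 of all genes were higher and 67 to 872 lower. The calls that the block by mouse changed for tumour against hyperplasia are named in the text. The normal libraries share no mouse with hyperplasia, so that comparison has no pairing. Leaving out a tumour library for the Lrrc15 and Acta2 cells was not run, since 1 library would be left.

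Of 613 folds of called chains under alternatives, 512 kept their call, 100 lost it and 1 reversed, Col3a1 in Gdf10 and Clec11a cells (-0.00220 with at least 2 UMIs). A group left with 1 library is assumed to vary like the others. Of 90 stage ratios, 26 left the counting interval and 3 changed their highest or lowest stage, those of Col4a1 and Col7a1 named in the text. Without keratin barcodes, an alternative chosen after seeing the data, 14 of the 15 stage chains were counted. Depth limits the 9 chains that peaked at 1 to 10 CPM and the 6 under 1 CPM.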
